A study of Drosophila melanogaster with 12 samples.

Results

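The cytoplasmic mRNA of cells depleted of U2AF50 was compared with that of control cells. The comparison was defined by the sample titles alone and took 6 of the 12 arrays of the series, with 13966 of 14010 probe sets once the 44 Affymetrix controls were left out. The depleted group held 3 cytoplasmic RNA samples of D. mel-2 cells, an embryonic Drosophila melanogaster line, after RNA interference against U2AF50. The control group held 3 cytoplasmic RNA samples of the same cells after a non-specific RNA interference, so both groups had taken up double-stranded RNA. Nuclear RNA of both treatments, with 3 arrays each, was on the remaining 6 arrays and helped to estimate the spread. The labels give neither the time after RNA interference nor separate cultures, so the p-values rest on differences among arrays of a group that may be technical only. In bulk RNA, fewer cells making a transcript and less of it per cell cannot be told apart.

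U2AF is a heterodimer that recognises the end of an intron. Its large subunit, U2AF50 in flies, binds the polypyrimidine tract upstream of the 3' splice site, the small subunit U2AF38 contacts the splice site itself, and together they help the U2 snRNP to join the pre-mRNA. The large subunit has also been studied for a role in mRNA export, which is why its effect on the cytoplasmic pool of mature mRNA is of interest.

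Before any comparison, the control arrays were less alike than the depleted ones. Depleted arrays correlated with one another at r between 0.955 and 0.959 across probe sets, and the control arrays at r between 0.891 and 0.928, with both of the low values involving control replicate 1. Control replicate 3 was closer to the depleted arrays (r between 0.941 and 0.943) than to control replicates 1 and 2 (0.891 and 0.928). Control replicate 2 correlated with the depleted arrays at r between 0.923 and 0.925. The control arrays thus did not group by treatment. The 3' to 5' ratio of the GAPDH probe sets, a measure of RNA integrity and labelling length, was 2.71, 3.63 and 2.36 in depleted cytoplasm, against 7.91, 4.47 and 3.89 in control cytoplasm. The groups did not overlap (exact permutation p = 0.1, 2-sided, the smallest that 3 against 3 arrays allow). The 18S rRNA probe sets followed the same pattern, with log2 levels of 6.65 ± 0.81 in depleted and 8.82 ± 1.27 in control cytoplasm (SD, n = 3 each, exact permutation p = 0.1). The hybridisation controls, added at a fixed amount, gave 12.34 ± 0.21 and 13.49 ± 1.1 (SD, n = 3 each, exact permutation p = 0.2). The labels mention hypotonic lysis for all 3 depleted samples and for control replicate 3, and do not mention it for control replicates 1 and 2. The part of these array differences in the results below was not tested other than by the alternatives given beside them.

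**Figure D1:**
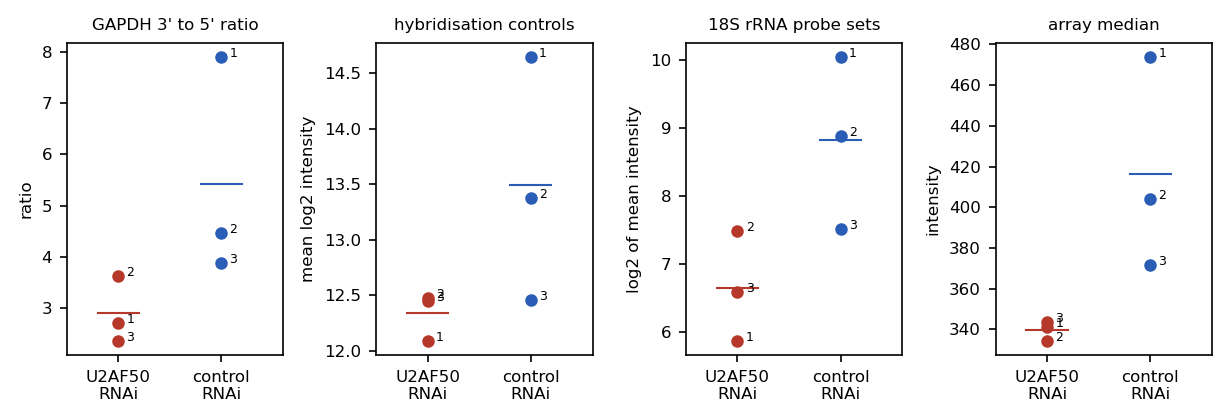
Array measures of the 6 cytoplasmic samples, with 1 point per array (its replicate number beside it) and a line at the mean. From left to right the vertical axes give the GAPDH 3' to 5' ratio, the mean log2 intensity of the hybridisation controls, the log2 of the mean intensity of the 18S rRNA probe sets and the median deposited intensity. Control replicate 1 is highest in all 4 panels, and its GAPDH ratio of 7.91 lies apart from the other 5 arrays.

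Over all genes, 148 of 8379 tested probe sets rose and 67 fell in depleted against control cytoplasm (limma, adjusted p under 0.05). This is 1.77% and 0.8% of them, and 2.57% in both directions together. The groups also differed in GAPDH ratio and in the hypotonic lysis label, so depletion and these differences cannot be fully told apart. With 1 probe set per gene, 130 of 6868 genes rose (1.89%) and 51 fell (0.743%). Changes of at least 2-fold were seen for 79 risen and 20 fallen probe sets. An unadjusted p under 0.05 was reached by 1322 probe sets. The number of calls rested on the choice of arrays: of the total of 215, there were 85 without control cytoplasm replicate 1, 139 without replicate 2 and 378 without replicate 3. It was 88, 55 and 52 without depleted cytoplasm replicates 1, 2 and 3, and 131 without either control nucleus replicate 1 or 3, which enter through the spread. With arrays centred on their medians, which put the median change of all tested genes at 0.23, against 0.05 in the reported fit and -0.00 as deposited, 317 probe sets rose and 44 fell. With the GAPDH ratio as a covariate 21 rose and 10 fell, and with the samples labelled for hypotonic lysis only, where a single control array remained, 21 rose and 3 fell. That lone control array was assumed to vary like the arrays of the other groups.

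**Figure D2:**
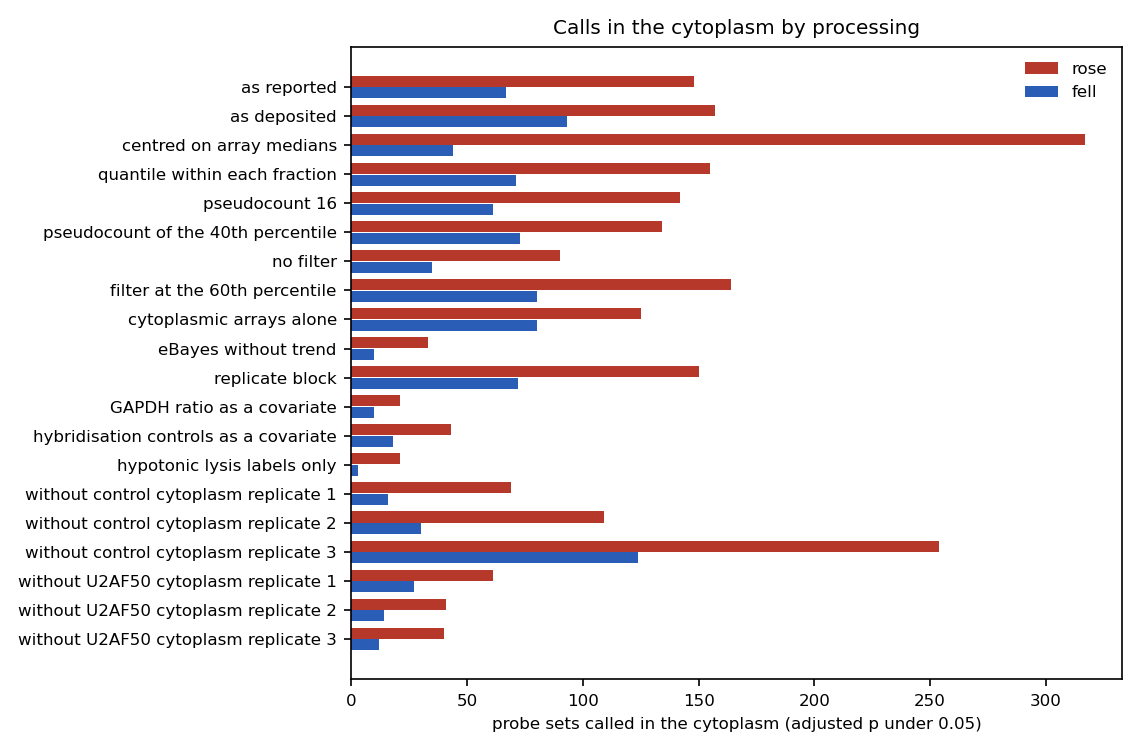
Probe sets that rose (red) and fell (blue) in depleted against control cytoplasm at an adjusted p under 0.05. The reported fit is at the top, with the alternatives below it except the fits without a nuclear array. The horizontal axis counts probe sets from 0, and the counts run between 21 and 317 for rises and between 3 and 124 for falls.

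The targeted gene was low in every depleted cytoplasmic sample, but not in the depleted nuclei. U2af50 had deposited intensities of 1030, 1327 and 1143 in depleted cytoplasm, against 2474, 5606 and 4751 in control cytoplasm, without overlap. Its log2 change was -1.75 (SE 0.26, adjusted p = 0.0012), and it fell in all 25 alternatives, between -2.07 and -1.49. In the nucleus it had 2718, 1738 and 1678 in depleted cells, against 1701, 1710 and 1589 in control cells (log2 change 0.21, adjusted p = 0.7384). The mRNA of the partner subunit U2af38 had 4602, 3919 and 4576 in depleted cytoplasm and 4681, 3343 and 5662 in control cytoplasm, which overlap (log2 change -0.12, SE 0.2, adjusted p = 0.8144).

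Besides U2af50, 11 of the 69 named genes with a call kept it in every alternative that could be computed: 2 that fell and 9 that rose. RpL28, a protein of the large ribosomal subunit, had 6773, 12439 and 8052 in depleted cytoplasm, against 48290, 28190 and 60395 in control cytoplasm. Sirup, an assembly factor of succinate dehydrogenase, had 8026, 9791 and 7264 against 39481, 33725 and 30554. In both genes every depleted array lay below every control array, which the rule that named them required. On the rising side were Nop60B, the pseudouridine synthase of H/ACA snoRNPs, the glutathione transferases GstD5 and GstD3, the aldo-keto reductase gene CG18547, the retinol dehydrogenase gene Rdh1, the antibacterial peptide gene DptB, the thioester protein gene Tep4, and CG7627 and CG15347. Of the 2 tested probe sets of CG7627 only the brighter was called. CG15347 had 3716, 3564 and 4485 in depleted cytoplasm, against 1205, 1437 and 986 in control cytoplasm (log2 change 1.59, SE 0.17, adjusted p = 3.12e-05). Rdh1 had 2127, 2532 and 2577 against 623, 729 and 680 (1.67, SE 0.17, adjusted p = 2.59e-05).

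**Figure D3:**
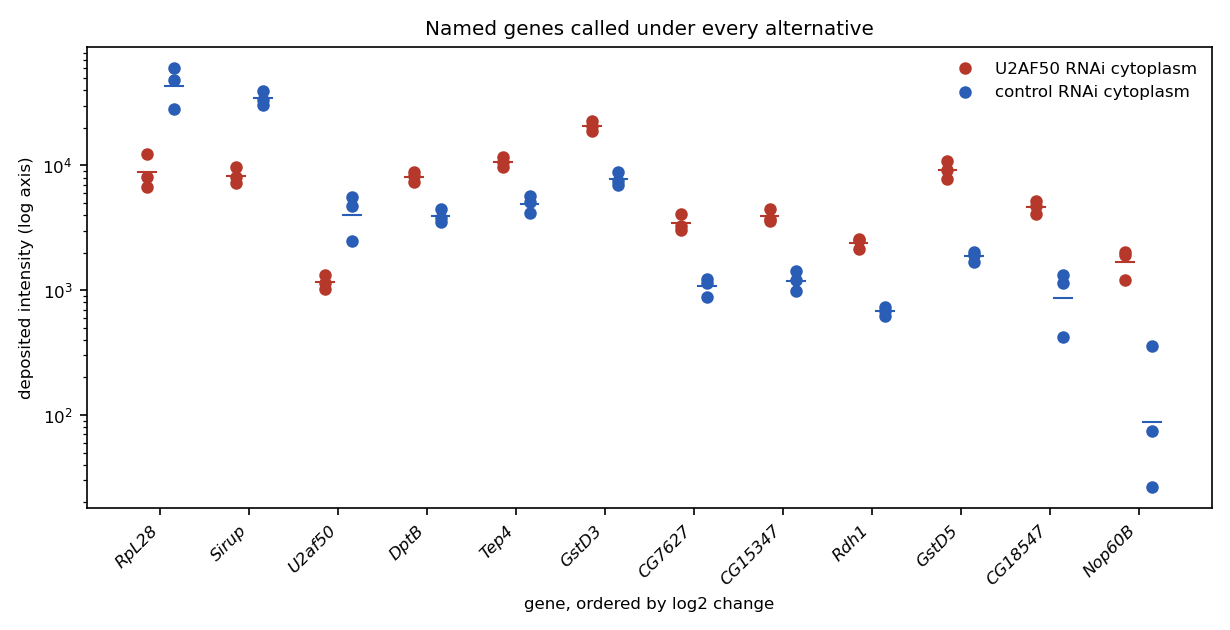
Deposited intensity on a log axis for the 12 named genes whose call held under every alternative, ordered by log2 change, with 1 point per array and a line at the geometric mean. Depleted cytoplasm (red) stands left of control cytoplasm (blue). The 3 arrays of each group do not overlap in any of the 12 genes, which was a condition for naming the largest rises and falls.

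Of 13 tested genes of 3' splice site recognition 1 fell, U2af50, and 0 rose, with a median log2 change of 0.11 beside 0.05 for all tested genes. The SF3b subunit gene Sf3b2 had the next largest change (1.21, SE 0.52, adjusted p = 0.2625), and Phf5a had -0.60 (adjusted p = 0.2887). None of the 13 core and U1 snRNP genes, 14 SR and hnRNP genes, 18 export genes and 11 exon junction and nonsense-mediated decay genes passed in limma, where 1.89% of all genes rose and 0.743% fell. Their medians were 0.02, 0.25, -0.00 and 0.09. The third turned to 0.23 with arrays centred on their medians, where all tested genes had 0.23. The fourth turned to -0.03 as deposited, so the direction of both depends on the scaling. Hel25E, the helicase that couples splicing to export, had a log2 change of 0.57 (adjusted p = 0.1132), and the THO subunit gene thoc5 had 0.95 (adjusted p = 0.1927). Outside these lists 2 genes, picked after their values were seen, did fall: SNRPG, the core protein SmG (-0.60, SE 0.15, adjusted p = 0.0411), and the splicing coactivator gene Srrm234 (-0.70, SE 0.16, adjusted p = 0.0308). Of 5 genes listed as decay targets, such as Gadd45 (-0.07), tra (0.59) and CG30427 (-0.62), and 8 genes listed as intronless, such as Hsp26 (0.19), Hsp68 (0.15) and Jra (-0.29), 0 passed. The medians of these lists were 0.17 and 0.09. The largest changes among the intronless genes were Hsp27 (0.65, adjusted p = 0.2998) and E(spl)malpha-BFM (0.63, adjusted p = 0.6883). For Hsp27 all depleted arrays lay above all control arrays, as in 16.2% of all tested genes.

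Mitochondrial respiratory genes made up 11 of the 51 genes that fell (21.6%). With the GAPDH ratio as a covariate the calls in complex I, complex II, complexes III and IV and ATP synthase numbered 1, 2, 0 and 0. A covariate of the hybridisation controls gave 1, 2, 1 and 0. Complex I, which takes electrons from NADH, had 3 of 25 tested genes lower and 0 higher, with a median log2 change of -0.39. Complex II and its assembly factors had 2 of 5 lower (median -0.76), complexes III and IV 3 of 16 (median -0.35) and ATP synthase 3 of 12 (median -0.50), with 0 higher in each. Against this, 0.743% of all genes fell. The 4 medians stayed below 0 as deposited, within fractions and with arrays centred on their medians, where the nearest to 0 was -0.07. Depleted arrays all lay below control arrays for 12 of the complex I genes, 4 of complex II, 10 of complexes III and IV and 9 of ATP synthase, where 12% of all genes did so. In the nucleus the 4 medians were -0.21, -0.54, -0.22 and -0.13.

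Within complex II, SdhB, the iron-sulphur subunit, had 7151, 7897 and 6589 in depleted cytoplasm, against 16210, 18736 and 13882 in control cytoplasm (log2 change -1.34, SE 0.18, adjusted p = 3.74e-04). The membrane anchor genes SdhC (-0.76) and SdhD (-0.50) did not pass. All their depleted arrays lay below all control arrays, as in 12% of all tested genes. ND-MWFE, a small membrane subunit of complex I, had 4567, 5096 and 4132 against 9641, 10729 and 8620 (-1.19, SE 0.15, adjusted p = 3.02e-04). SdhB and ND-MWFE each kept the call in 24 of 25 alternatives. The other falls were smaller. COX8 (-0.77), the complex IV gene levy (-0.61), the complex III gene ox (-0.73), ND-B14.5A (-0.85), ND-ACP (-0.81), ATPsynE (-0.97), ATPsynO (-0.76) and ATPsynD (-0.61) had adjusted p-values between 0.0169 and 0.0458. Each of these 8 calls ended without single arrays, among them depleted cytoplasm replicate 3 in every case, where the adjusted p lay between 0.0807 and 0.195 and the log2 change between -0.88 and -0.59. Of the 2 tested probe sets of ox only the brighter was called. Without control replicate 1, whose GAPDH ratio stood apart, 1 of the 3 complex I calls, both complex II calls, and none of those in complexes III and IV or ATP synthase were left. NdufA3, another complex I subunit gene found outside the list, had 2260, 1871 and 2202 against 4637, 4196 and 3761 (-1.05, SE 0.23, adjusted p = 0.0226), a call that ended without control replicate 1 or 2 or any 1 depleted cytoplasm array (adjusted p between 0.061 and 0.11). The ATPase inhibitor gene CG13551 (-1.01, adjusted p = 3.74e-04) and the complex IV assembly gene Coa8 (-0.84, adjusted p = 0.0436) fell as well, both named after their values were seen.

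Of 66 mitochondrial ribosomal protein genes 0 passed in limma, with a median of -0.12 that became 0.18 with arrays centred on their medians. The median of all tested genes moved from 0.05 to 0.23 with that centring. Depleted arrays all lay below control arrays for 15 of the 66, where 12% of all genes did so. Of 31 cytosolic ribosomal protein genes 3 fell and 1 rose, where 0.743% of all genes fell and 1.89% rose. Their median of -0.04 became -0.76 as deposited and -0.53 with that centring. RpS26 had 58778, 53512 and 35269 in depleted cytoplasm, against 216543, 94608 and 108123 in control cytoplasm (log2 change -0.81, SE 0.16, adjusted p = 0.0138). RpL17 (-0.81, adjusted p = 0.0383) had overlapping arrays after normalisation. The calls of both ended without control replicate 1 (adjusted p = 0.0628 and 0.218) or depleted replicate 3 (0.0607 and 0.156), and that of RpL17 also without depleted replicate 2, control replicate 3 or any control nucleus array. In the other direction, RpS29 had 13789, 17857 and 16433 in depleted cytoplasm and 4399, 6779 and 7133 in control cytoplasm (1.51, SE 0.22, adjusted p = 0.0012), and it rose in the nucleus too (1.55, adjusted p = 6.41e-04). Of 26 proteasome genes 0 passed, with a median of -0.02, and of 33 cell cycle and replication genes 0 passed, with a median of -0.12.

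**Figure D4:**
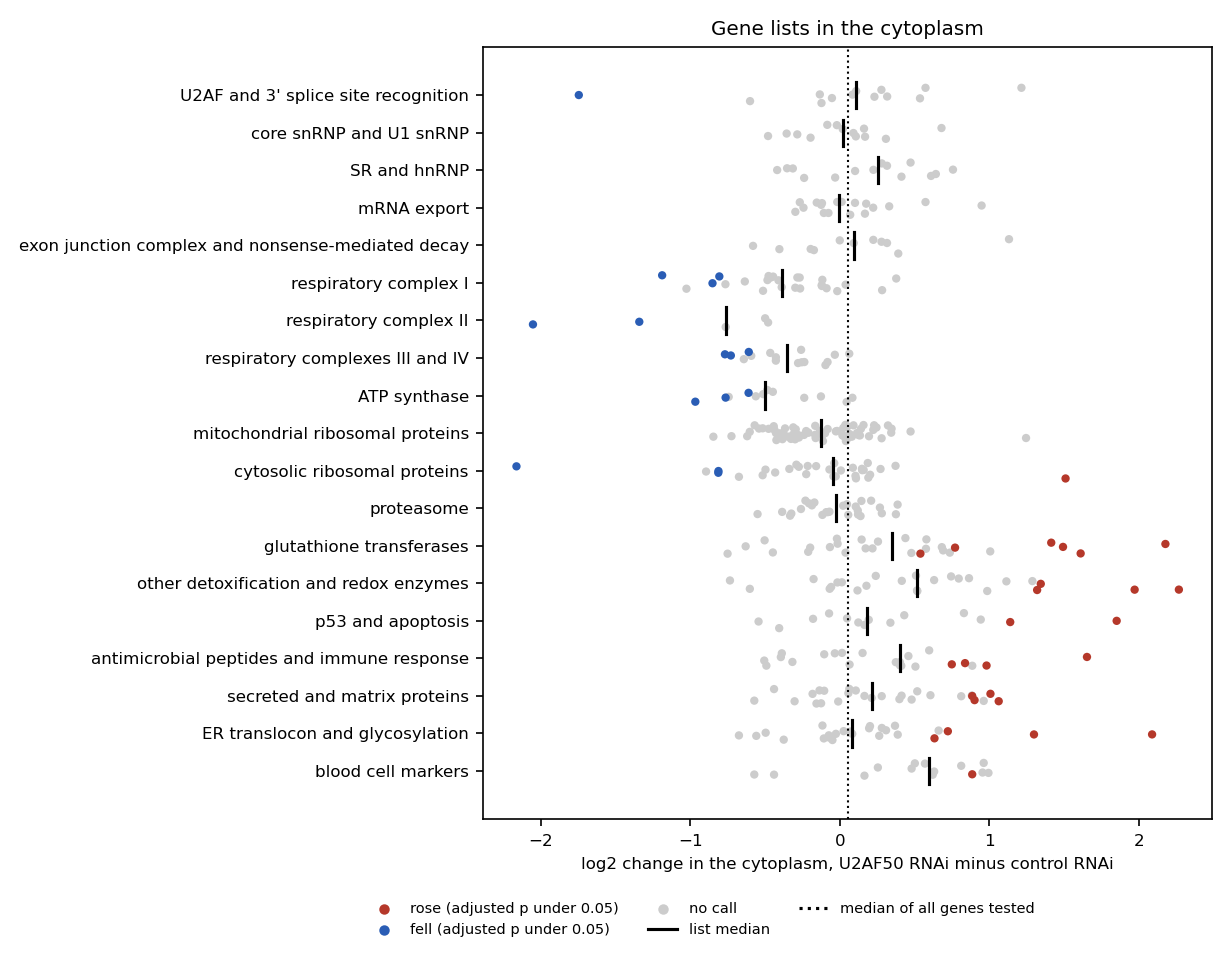
Log2 change in the cytoplasm (U2AF50 RNAi minus control RNAi) of each tested member of 19 gene lists, with 1 point per gene, coloured where the adjusted p was under 0.05. Black bars mark list medians and the dotted line marks the median of all tested genes at 0.05. The coloured points of the 4 respiratory lists lie to the left and those of the glutathione transferase and detoxification lists to the right.

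Genes of iron and haem handling lay on both sides. Alas, which makes the first committed precursor of haem, had 6865, 7020 and 4142 in depleted cytoplasm, against 10391, 11790 and 8269 in control cytoplasm (log2 change -0.90, SE 0.22, adjusted p = 0.0376). Coprox, a later enzyme of the same pathway, had a log2 change of -0.58 (SE 0.14, adjusted p = 0.0433). IscU, the scaffold on which iron-sulphur clusters are built, rose to 12601, 14786 and 13662, against 6781, 7876 and 8507 (0.88, SE 0.17, adjusted p = 0.0098). Nfs1, the cysteine desulfurase that supplies its sulphur, rose by a similar amount (0.81, SE 0.17, adjusted p = 0.016). These 4 genes were picked after their values were seen. Of the 11 genes listed for metal handling, the ferritin heavy chain gene Fer1HCH rose (0.89, SE 0.15, adjusted p = 0.0032) and the metallothionein gene MtnA fell (-0.75, SE 0.17, adjusted p = 0.0269), where 1.89% of all genes rose and 0.743% fell. The call of MtnA ended without any 1 of the 3 depleted cytoplasm arrays or control cytoplasm replicate 1 or 2 (adjusted p between 0.0564 and 0.145).

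Glutathione transferases were the list with the most rises. These enzymes couple glutathione to reactive compounds, and 6 of 28 tested members rose and 0 fell (median log2 change 0.35, beside 1.89% of all genes rising). GstD5 had 7797, 9119 and 10787 in depleted cytoplasm, against 1930, 2041 and 1689 in control cytoplasm (2.18, SE 0.19, adjusted p = 4.32e-06). GstD3 had 20526, 18884 and 22634 against 6994, 7533 and 8906 (1.49, SE 0.15, adjusted p = 2.59e-05). In both, the lowest depleted array was more than 2-fold above the highest control array. GstD9 (1.61, adjusted p = 0.0114), GstE11 (1.41, adjusted p = 0.0251), GstE6 (0.77, adjusted p = 0.0035) and GstD1 (0.54, adjusted p = 0.0483) made up the rest. All 6 rose in the nucleus as well, GstD5 by 2.15 and GstE11 by 2.36. Without control replicate 1, 3 of the 6 were called, since GstD9 (adjusted p = 0.0628), GstE11 (0.106) and GstD1 (0.121) missed the threshold. Without depleted replicate 2 or 3 the same 3 genes also missed it (adjusted p between 0.0572 and 0.206). GstE11 and GstD1 missed it without depleted replicate 1 (0.0941 and 0.154), and GstD1 also without control cytoplasm replicate 2 or 3, control nucleus replicate 1 or 3 or depleted nucleus replicate 1. Members of this family are similar in sequence, and sharing of signal between their probe sets was not tested.

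Of 25 other tested enzymes of detoxification 4 rose and 0 fell (median 0.52), where 1.89% of all genes rose. With the GAPDH ratio as a covariate 1 gene of this list and 2 glutathione transferases were called as higher. A covariate of the hybridisation controls gave 2 and 3. CG18547 had 4099, 4735 and 5163 in depleted cytoplasm, against 1146, 419 and 1332 in control cytoplasm (log2 change 2.27, SE 0.32, adjusted p = 7.96e-04). The cytochrome P450 genes Cyp9c1 (1.34, adjusted p = 0.0158) and Cyp6a20 (1.32, adjusted p = 0.0131) rose in the cytoplasm, and had log2 changes of 0.31 and 0.26 in the nucleus that did not pass. Cyp9c1 had 758, 507 and 667 in depleted cytoplasm, against 165, 332 and 199 in control cytoplasm, and between 2958 and 4549 on the nuclear arrays. Cyp6a20 had 1496, 1840 and 1804 against 357, 772 and 883, and between 15746 and 24987 on the nuclear arrays. Carry-over of nuclear RNA into the cytoplasmic fractions was not tested. MRP, an ABC transporter that exports conjugated compounds, had 2691, 2364 and 1979 against 84, 1030 and 1086 (1.97, SE 0.50, adjusted p = 0.045). Its low control value came from replicate 1, and the call ended in 15 of 25 alternatives, among them the fits without any 1 depleted cytoplasm array (adjusted p between 0.125 and 0.155), without any control nucleus array and without depleted nucleus replicate 1 or 2. The call of Cyp9c1 ended without control replicate 1 or depleted replicate 1 or 3, and that of Cyp6a20 without depleted replicate 2 or 3 (adjusted p between 0.0526 and 0.0814). Among 16 transporter genes, a list that also holds MRP, 2 rose and 1 fell, where 1.89% of all genes rose and 0.743% fell. Besides MRP, Indy, a citrate transporter, rose (1.07, adjusted p = 0.0197, and 0.0983 or 0.111 without depleted replicate 2 or 3) and Orct2, an organic cation transporter, fell to 1224, 1386 and 1430, against 3014, 3405 and 2910 (-1.21, SE 0.15, adjusted p = 3.40e-04). Indy had 563, 906 and 911 in depleted cytoplasm, against 427, 366 and 264 in control cytoplasm, and between 8711 and 18252 on the nuclear arrays.

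Of 14 tested p53 and apoptosis genes 2 rose and 0 fell, where 1.89% of all genes rose, and 0 were called with the GAPDH ratio as a covariate. p53 itself had 2196, 2403 and 2727 in depleted cytoplasm, against 973, 1065 and 1024 in control cytoplasm, about 2.2-fold apart with no overlap (log2 change 1.14, SE 0.23, adjusted p = 0.0131). TP53INP, related to a mammalian target of p53, had 1272, 953 and 1034 against 288, 325 and 136 (1.85, SE 0.34, adjusted p = 0.0089). The call of p53 ended without depleted replicate 2 or 3 (0.0703 and 0.103), and that of TP53INP without depleted replicate 1 or 3 (0.0549 and 0.0509). Picked after their values were seen, the BAX inhibitor family genes BI-1 (1.27, adjusted p = 0.001) and Nmda1 (1.28, adjusted p = 0.001) rose, as did RPA1, the large subunit of the single-stranded DNA binding protein (1.42, adjusted p = 3.12e-05). A second, dimmer probe set of BI-1 had 0.65 (adjusted p = 0.3179) and one of RPA1 had 0.15 (adjusted p = 0.8929). Of 16 genes of stress kinases and the integrated stress response 0 passed in limma, with a median of 0.39. Irbp18 (1.01, adjusted p = 0.0592), the JNK gene bsk (0.89, adjusted p = 0.1035) and its phosphatase gene puc (0.77, adjusted p = 0.1247) came closest. Each had all depleted arrays above all control arrays, as did 16.2% of all tested genes.

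Of 23 immune genes 4 rose and 0 fell (median 0.40), where 1.89% of all genes rose and 0.743% fell. DptB, an antibacterial peptide, had 7322, 8243 and 8931 in depleted cytoplasm, against 3814, 4494 and 3492 in control cytoplasm, and AttD had 13730, 14909 and 15628 against 10119, 9313 and 7056. The NF-kappaB factor gene dl had 1117, 1002 and 1144 against 223, 287 and 387, with a log2 change of 1.65 (SE 0.34, adjusted p = 0.016). The peptide gene Mtk followed at 0.75 (adjusted p = 0.0383). DptB, AttD and Mtk rose in the nucleus too, by 0.79, 1.18 and 1.29, and dl had 0.13 there (adjusted p = 0.8796). Without control replicate 1 the calls of dl (0.0628) and Mtk (0.116) ended, as they did without any 1 depleted cytoplasm array (adjusted p between 0.0654 and 0.147). That of AttD ended without depleted replicate 2 or 3 (0.0569 and 0.0807), and that of Mtk also without control cytoplasm replicate 3 or control nucleus replicate 1 or 3.

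Several genes of secretory proteins were higher in depleted cytoplasm, at levels far below those of the nuclear arrays. Ostgamma, a subunit of the oligosaccharyltransferase, had 1543, 1579 and 1954 in depleted cytoplasm, against 242, 210 and 622 in control cytoplasm (log2 change 2.09, SE 0.28, adjusted p = 4.12e-04). In the nuclear fraction it had between 22721 and 31670 in depleted cells and between 21394 and 26666 in control cells, with a change of 0.24 that did not pass (adjusted p = 0.7159). Serinc, a multi-pass membrane protein, had 1252, 692 and 876 against 96, 330 and 265 in the cytoplasm (1.79, SE 0.28, adjusted p = 0.0019), and between 18113 and 22176 against between 12358 and 15792 in the nucleus. Of 25 genes of the translocon and glycosylation 4 rose and 0 fell (median 0.08), where 1.89% of all genes rose: besides Ostgamma these were Sil1, an exchange factor of the ER chaperone BiP (1.30, adjusted p = 0.0019), Pdi (0.72, adjusted p = 0.0166) and OstDelta (0.63, adjusted p = 0.0308). Hsc70-3, which is BiP, had -0.67 (adjusted p = 0.104). Of 27 secreted and matrix genes 4 rose and 0 fell (median 0.21), with Tep4 at 11782, 9731 and 10633 in depleted cytoplasm, against 4119, 5666 and 5049 in control cytoplasm, and Idgf6 at 5170, 4601 and 4873 against 2067, 2094 and 2669. All 8 of these genes were called without control replicate 1. The call of OstDelta ended without control cytoplasm replicate 2, control nucleus replicate 1 or 3 or any 1 depleted cytoplasm array, and that of Pdi without control replicate 2 or any 1 depleted cytoplasm array (adjusted p between 0.051 and 0.14). How much nuclear or membrane-bound RNA each cytoplasmic fraction carried was not tested.

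The largest rise of all was that of Nop60B, with 1929, 2024 and 1203 in depleted cytoplasm, against 354, 26.3 and 74 in control cytoplasm (log2 change 3.07, SE 0.44, adjusted p = 0.001). Log2 changes were taken after adding 94.7 to each intensity, and 2 of the control values lie below that constant, so the fold of 8.39 understates the ratio of the intensities. The other 8 snoRNP protein genes did not pass in limma, among them Nopp140 (0.48), NHP2 (0.40) and Gar1 (0.25). Factors of mRNA turnover chosen after their values were seen rose: the decapping enzyme DCP2 (0.86, SE 0.21, adjusted p = 0.0373), the deadenylase Pop2 (1.09, SE 0.26, adjusted p = 0.0376) and the ribosome rescue factor HBS1 (0.88, SE 0.22, adjusted p = 0.0411). Their calls come from the reported fit alone and are not given under the alternatives. For Pop2 and HBS1 a second, dimmer probe set had 0.27 (adjusted p = 0.8336) and -0.01 (adjusted p = 0.9915), so their probe sets disagree. All 25 genes with several tested probe sets and a call had at least 1 probe set without it. Among translation factors 2 of 26 rose, where 1.89% of all genes did: eIF3b (0.55, adjusted p = 0.0457) and eEF1delta (0.69, adjusted p = 0.0373). Each of these calls ended in 8 of the 12 fits without 1 array.

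Further genes with large changes belonged to none of the lists above. CG43798 had 5479, 12529 and 7731 in depleted cytoplasm, against 859, 2818 and 1838 in control cytoplasm (log2 change 2.24, SE 0.45, adjusted p = 0.0149). Naam, a nicotinamidase, had 2996, 2757 and 3202 in depleted cytoplasm, against 501, 767 and 1058 in control cytoplasm (1.87, SE 0.35, adjusted p = 0.0092). Both also rose in the nucleus, by 2.87 and 1.54. Msr-110 rose at low intensities (1.80, SE 0.28, adjusted p = 0.0016). Among the falls, CG13615 had 213, 113 and 185 in depleted cytoplasm, against 1297, 930 and 870 in control cytoplasm (-1.83, SE 0.41, adjusted p = 0.0279). Asap fell in both fractions, with a cytoplasmic log2 change of -1.45 (adjusted p = 0.0298) and a nuclear one of -1.28. Asap had 3 tested probe sets and Naam had 2, and for each gene only the brightest was called in the cytoplasm. The call of CG43798 ended without control replicate 1 or depleted replicate 2 or 3 (adjusted p between 0.0607 and 0.0916), and that of Naam without depleted replicate 3 (0.0623). Those of CG13615 and Asap ended without control cytoplasm replicate 1 or 2 or any 1 depleted cytoplasm array (adjusted p between 0.0601 and 0.138), and that of Asap also without control nucleus replicate 1 (0.0507).

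Markers of other cell types were mostly dim. Of the germline list 6 of 11 genes on the array were bright enough to test and 1 rose, where 1.89% of all genes did. This was osk, a determinant of the germ plasm in the oocyte. It had 1215, 793 and 737 in depleted cytoplasm, against 278, 219 and 191 in control cytoplasm (log2 change 1.71, SE 0.28, adjusted p = 0.0035), and rose in the nucleus by 2.12. The germline genes vas and bam were too dim to test, grk had 0.18 (adjusted p = 0.7593), and the summed intensity of the list lay between 11221 and 12707 in depleted cytoplasm and between 7628 and 10454 in control cytoplasm. The piRNA helicase gene spn-E rose as well (0.96, adjusted p = 0.0284), a call that ended without control replicate 1 or depleted replicate 2 or 3. Neuronal, muscle and fat body lists had 1, 2 and 5 genes bright enough to test, and 0 of them passed in limma. Of 14 tested blood cell markers, the type that embryonic fly lines often resemble, 1 rose (1.89% of all genes did), Fer1HCH, which many cells express. The median of the list was 0.60 in the cytoplasm and -0.46 in the nucleus. Its summed intensity lay between 43228 and 48797 in depleted cytoplasm and between 26397 and 32052 in control cytoplasm, and most of each sum came from Fer1HCH. Without that gene the sums lay between 13844 and 15268 in depleted cytoplasm and between 9306 and 11962 in control cytoplasm. srp, a transcription factor of blood cells, had 4283, 5085 and 5165 against 2369, 3341 and 3284 (0.62, adjusted p = 0.2583), while NimC1 was too dim to test and Hml had intensities between 109 and 159 in depleted cytoplasm and between 25.6 and 338 in control cytoplasm.

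The nuclear arrays gave a second view of the same depletion on samples that do not enter the cytoplasmic contrast, although the spread was estimated jointly. Of the 130 genes that rose in the cytoplasm 43 also rose in the nucleus and 0 fell there, where 1.75% of all genes rose and 1.82% fell. This is 33.1% of the genes that rose in the cytoplasm and 35.8% of the 120 that rose in the nucleus. Of the 51 that fell in the cytoplasm 9 also fell in the nucleus and 0 rose. This is 17.6% of them and 7.2% of the 125 that fell in the nucleus. The nuclear log2 change had the sign of the cytoplasmic one in 104 of the 130 and 42 of the 51, and its median was 0.36 and -0.27, beside -0.05 for all 6868 genes. Over all tested genes the correlation of the 2 responses was weak (r = 0.14, rho = 0.11, across genes, which are not independent replicates). Sirup showed the largest joint fall, with 1032, 1293 and 1204 in depleted nuclei, against 14727, 10353 and 10071 in control nuclei (log2 change -3.11, adjusted p = 1.86e-09).

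**Figure D5:**
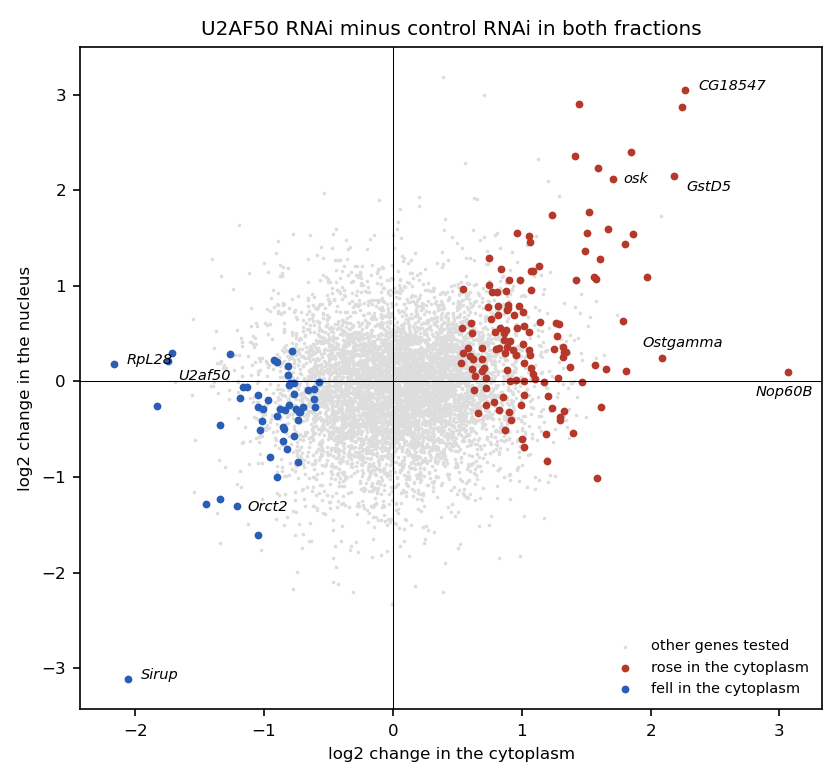
Log2 change after U2AF50 RNAi against control RNAi in the cytoplasm (horizontal) and in the nucleus (vertical), with 1 point per gene. Of the genes that rose in the cytoplasm (red) 104 of 130 lie above 0 on the nuclear axis, and of those that fell (blue) 42 of 51 lie below it, with RpL28, U2af50, Ostgamma and Nop60B near 0.

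Genes that fell were short and highly expressed. Their median length in the RefSeq annotation, introns included, was 1547 bases, against 2781.5 for genes that rose and 2655 for all tested genes with a length. Their median level in control cytoplasm was 12.8 on the normalised log2 scale, where genes that rose had 10.6 and all tested genes 9.93. In depleted cytoplasm these medians were 12.07, 11.72 and 10.02. Both levels enter the contrast behind the calls, so the gap between falls and rises depends on which level is taken. The part of this difference in level in which changes were called was not tested. In RefSeq gene order 4 pairs of neighbouring protein-coding genes were both called. How many such pairs the number of calls alone would give was not tested. Both genes rose in the pairs GstD9 and GstD1, CG7840 and Ostgamma, and CG11400 and Gbp1, while CG3566 fell beside Ubi-p5E, which rose.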

How the data were processed

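The authors deposited 1 table of intensities on a linear scale, 1 value per probe set for each of 12 Affymetrix arrays. Per array, these deposited values average 1000 after trimming 2% at each end. Image software and summarisation were not given in the sources used here. Log2(intensity + 94.7), the constant being the 20th percentile of all values, was quantile normalised over the 12 arrays, because array medians spanned 0.46 on that scale. Probe sets with a mean above the 40th percentile were tested with limma 3.58.1 (R 4.3.3, lmFit and eBayes with intensity trend, 4 groups, 8 residual and 8.95 prior degrees of freedom) and Benjamini-Hochberg adjustment over 8379 probe sets at 0.05. Errors are limma standard errors, n = 3 per group, and the number of arrays limits precision. Platform annotation gave 1 symbol for 12444 probe sets and several for 327, from which no gene was named. A gene took its brightest probe set.

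Named genes were U2af50, U2af38, the 20 largest rises and 15 largest falls without overlap between groups, and up to 5 members, or all called ones, of each of 36 lists. Genes said to be picked after their values were seen stand outside this rule, and their calls are given from the reported fit alone. Members, lists and rule were chosen with earlier results of these data known, and lists were counted, not tested. Printed intensities are as deposited, and log2 changes come from the normalised values. The procedure was also run on simulated data with independent noise for each probe set and array. The simulation held no differences in quality between arrays, so it cannot show how the calls behave under those described above. Replicate numbers did not pair the samples.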

Additional observations from a re-analysis of the deposited data

Results flagged for a closer look

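The interaction term of the limma fit, the nuclear minus the cytoplasmic log2 change, passed the threshold for 14 probe sets (0.167%), 11 of them with 1 gene symbol. Given here are the 6 of these 11 genes that were called in the cytoplasm or are named by the rule for named genes. RpL28 had an interaction of 2.34 (SE 0.31, adjusted p = 0.0031), with intensities in the nucleus of 30856, 24780 and 24626 in depleted cells and 22545, 26133 and 26266 in control cells. U2af50 had 1.96 (SE 0.37, adjusted p = 0.0375), and its nuclear change was 0.21 (adjusted p = 0.7384). CG15784 rose in both fractions and more in the nucleus, with an interaction of 1.46 (SE 0.20, adjusted p = 0.0031) and log2 changes of 2.91 in the nucleus and 1.44 in the cytoplasm. eIF6, which limits the joining of ribosomal subunits, had 2.29 (SE 0.30, adjusted p = 0.0031), with 2.99 in the nucleus and 0.71 in the cytoplasm. Sil1 and miple2 went the other way, with interactions of -1.70 (SE 0.29, adjusted p = 0.0224) and -1.70 (SE 0.32, adjusted p = 0.0375). Both rose in the cytoplasm, by 1.30 and 1.02, and had -0.40 and -0.69 in the nucleus, which did not pass. Both interactions missed the threshold with the GAPDH covariate, with the hybridisation covariate, with hypotonic lysis labels only and without control nucleus replicate 1, settings in which 0 interactions were lower in the nucleus. The calls of the other 4 genes, all higher in the nucleus, also ended with hypotonic lysis labels only, where a single control cytoplasm array remained. Without the eBayes trend 1 interaction was higher in the nucleus, so at most 1 of these 4 calls held. With either covariate 3 were higher, so at most 3 of the 4 held. The same number was left without control nucleus replicate 1 or 3 or depleted cytoplasm replicate 2 or 3.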

How the results depend on the processing

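The fall of U2af50 kept its call in all 25 alternatives, between -2.07 and -1.53 with single arrays left out. The counts moved more. Leaving out 1 array gave 40 to 254 rises and 12 to 124 falls in the cytoplasm, 15 to 45 list members that rose and 6 to 23 that fell, 66 to 166 rises and 50 to 209 falls among nuclear probe sets (132 and 153 in all arrays), and 3 to 30 interactions higher and 0 to 53 lower in the nucleus (6 and 8 in all arrays). With arrays centred on their medians, the cytoplasm had 317 rises and 44 falls, 57 list members rose, 69 rose and 240 fell in the nucleus, and 10 interactions were higher and 173 lower. As deposited, interactions numbered 10 higher and 25 lower, and those lower numbered 20 with quantiles within fractions, 17 with the 40th percentile as pseudocount and 17 with the 60th percentile filter. Without a filter there were 90 rises and 35 falls in the cytoplasm, 10 list members that fell, 101 nuclear falls and 3 lower interactions. Without the eBayes trend there were 33 and 10, list members 14 and 6, nuclear 74 and 81, and interactions 1 and 4. The GAPDH covariate gave 21 and 10, list members 11 and 6, and interactions 3 and 0. The hybridisation covariate gave 43 and 18, list members 18 and 7, and interactions 3 and 0. Hypotonic lysis labels only gave 21 and 3, list members 8 and 3, nuclear 84 and 55, and interactions 0 and 0. The cause of these shifts was not tested. No result reversed its direction while called. With the replicate number as a block, although the numbers did not pair the samples (cytoplasmic correlations -0.0174, -0.0049 and 0.0273), 150 probe sets rose and 72 fell. Of 69 named calls, 34, 24 and 5 were lost without control cytoplasm replicates 1, 2 and 3, and 30, 40 and 44 without depleted cytoplasm replicates 1, 2 and 3. With 3 arrays a group, small changes of dim probe sets could not be called.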
